A study of Sus scrofa with 95 samples.

Results

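The urea cycle set described here holds 10 genes: NAGS, CPS1, OTC, ASS1, ASL, ARG1, ARG2, SLC25A15, SLC25A13 and GLS2. They were chosen by gene symbol, and all 10 were found among the 35670 genes of the count table. RNA was measured in 5 organs of 19 infant pigs weighing 5 to 10 kg, with 1 library per animal and organ and 95 libraries in all. The control arm was 8 animals that received anesthesia only. The CPB arm was 7 animals that underwent cardiopulmonary bypass (CPB) with deep hypothermic circulatory arrest for 75 min and received no drug. The linrodostat arm was 4 animals with the same bypass and 75 min of arrest that were also given 75 mg of linrodostat, an inhibitor of the tryptophan-degrading enzyme IDO1. There were 4 females and 4 males in the control arm, 3 females and 4 males in the CPB arm, and 2 females and 2 males in the linrodostat arm. Tissue came from the liver, the terminal ileum, the kidney cortex, the left ventricle and the lower lobe of the right lung, and the kidney and ileum were removed just before euthanasia and the other organs just after it. The comparisons ask how each organ's RNA differs after bypass and arrest, and whether the drug changes that difference.

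The urea cycle turns ammonia, which comes from amino acid breakdown and from gut bacteria, into urea for excretion. Its first steps run in the mitochondrion and the rest in the cytosol, so ornithine, citrulline and aspartate must be carried across the mitochondrial membrane. The complete cycle is a property of hepatocytes, above all those around the portal vein, while enterocytes make citrulline from glutamine and the proximal tubule of the kidney turns circulating citrulline into arginine.

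Levels are given in CPM, read counts divided by a normalised library size, scaled within each organ unless stated otherwise, and they are compared between arms or organs for 1 gene at a time, not between genes, since they are not divided by transcript length. Each organ's own markers were high in its libraries. The 8 hepatocyte markers summed to between 79448 and 123025 CPM in liver, the 5 cardiomyocyte markers to between 56863 and 104756 in heart, and the 4 alveolar epithelium markers to between 6218 and 12488 in lung. Several libraries stood apart from the rest of their group, and they are named again beside the results that rest on them. The liver of control 4 had a summed level of 4 erythroid markers of 4679 CPM, against at most 1028 in any other liver. The ileum of CPB animal 19 had a summed enterocyte marker level of 451 CPM, against 2723 or more in the other 18 ilea. Among control kidneys, the 6 proximal tubule markers summed to 1350 CPM in animal 15 and 3161 in animal 14, against 4729 to 6050 in the other 6. The kidney of linrodostat animal 12 held 333 CPM of ALB, the hepatocyte albumin gene, against at most 33.9 in any other kidney. The lungs of CPB animals 19 and 25 held thick limb and distal tubule markers at summed levels of 57.9 and 50.7 CPM, against 0 to 0.277 in the control lungs. Linrodostat lungs 20 and 18 held 30.9 and 8.96 CPM of the same markers, and every other lung held 3.02 or less. In bulk tissue, fewer cells of a type and less RNA of that type per cell cannot be told apart.

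In control animals every one of the 10 genes had its highest level in liver. For 9 of them the liver differed from each of the other 4 organs in edgeR's quasi-likelihood test with Benjamini-Hochberg adjustment, and the exception was ASS1. Across the 10 pairs of organs, 87 of the 100 combinations of gene and organ pair passed, and between 55.1 and 68.1% of all genes passed in each pair, so a difference between organs was common for any gene. The heart libraries carry batch label 2 and those of the other organs batch label 1, so heart and batch cannot be told apart in any comparison with heart. Levels in the next 4 paragraphs are medians over 8 control animals on a scale shared by all organs.

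NAGS makes N-acetylglutamate, the activator that CPS1 requires. It lies at chr12:19170398-19173968 in the Sscrofa11.1 assembly, from which all positions here are taken. Its level was 149 CPM in liver, 12.2 in ileum, 1.89 in kidney, 0.385 in lung and 0.125 in heart, and every neighbouring pair in that order differed. CPS1 (chr15:113210038-113339086), which joins ammonia and bicarbonate into carbamoyl phosphate, was at 1427 CPM in liver and 330 in ileum. Its median was 0 in kidney, lung and heart, where 7, 5 and 7 of the 8 control libraries had no count, and no pair of these 3 organs passed (adjusted p between 0.173 and 0.657). OTC (chrX:34322398-34391711), which makes citrulline from carbamoyl phosphate and ornithine, followed the same order, with 366 CPM in liver and 47.1 in ileum. Lung followed at 0.0895, while heart against kidney did not pass (adjusted p = 0.844). The mitochondrial entry steps of the cycle were therefore measured at appreciable levels in 2 organs, and the ileum lay below the liver by a log2 difference of 2.50 ± 0.71 (SE) for CPS1, 2.82 ± 0.42 for OTC and 3.57 ± 0.36 for NAGS.

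ASS1 (chr1:270531434-270586364) joins citrulline and aspartate into argininosuccinate. Its levels were high in 3 organs: 1190 CPM in liver, 897 in kidney and 635 in ileum, against 5.70 in heart and 3.67 in lung. None of the 3 pairs among liver, kidney and ileum passed (adjusted p between 0.141 and 0.998), with liver above ileum by 0.57 ± 0.34 on the log2 scale, and heart against lung did not pass either (adjusted p = 0.0897). ASL (chr3:16637481-16646869), which splits argininosuccinate into arginine and fumarate, was at 286 CPM in liver, 110 in kidney, 18.6 in ileum, 16.9 in heart and 11.09 in lung. Kidney lay above ileum by a log2 difference of 2.41 ± 0.26 for ASL, while heart against ileum did not pass (adjusted p = 0.246).

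ARG1 (chr1:32006035-32028983) is the cytosolic arginase that releases urea and ornithine from arginine. It was at 292 CPM in liver, with a wide range from 96.2 to 3028, and its next highest level was in lung at 11.096 CPM. Heart at 0.414 and ileum at 0.396 followed, a difference that did not pass (adjusted p = 0.843), and kidney was lowest at 0.0353. ARG2 (chr7:91343987-91385911), the mitochondrial arginase found outside the liver as well, had another order: 57.1 CPM in liver, 24.1 in kidney, 6.51 in ileum, 2.33 in heart and 2.07 in lung, with heart against lung not passing (adjusted p = 0.697).

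SLC25A15 (chr11:15494176-15551172), the mitochondrial ornithine and citrulline exchanger, was at 136 CPM in liver, 79.3 in kidney, 23.9 in ileum, 4.46 in heart and 2.23 in lung, and all neighbouring pairs differed. SLC25A13 (chr9:75781421-75980606), the carrier citrin that exports aspartate from mitochondria, had the smallest ratio of highest to lowest organ median in the set, from 142 CPM in liver and 51.9 in kidney to 16.9 in heart, 15.6 in ileum and 9.99 in lung. Heart against ileum did not pass for SLC25A13 (adjusted p = 0.136). GLS2 (chr5:21806405-21820001), the liver-type glutaminase that frees ammonia from glutamine, was at 51.7 CPM in liver and at 0.884 or below in every other organ, and heart against lung did not pass (adjusted p = 0.463).

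**Figure D1:**
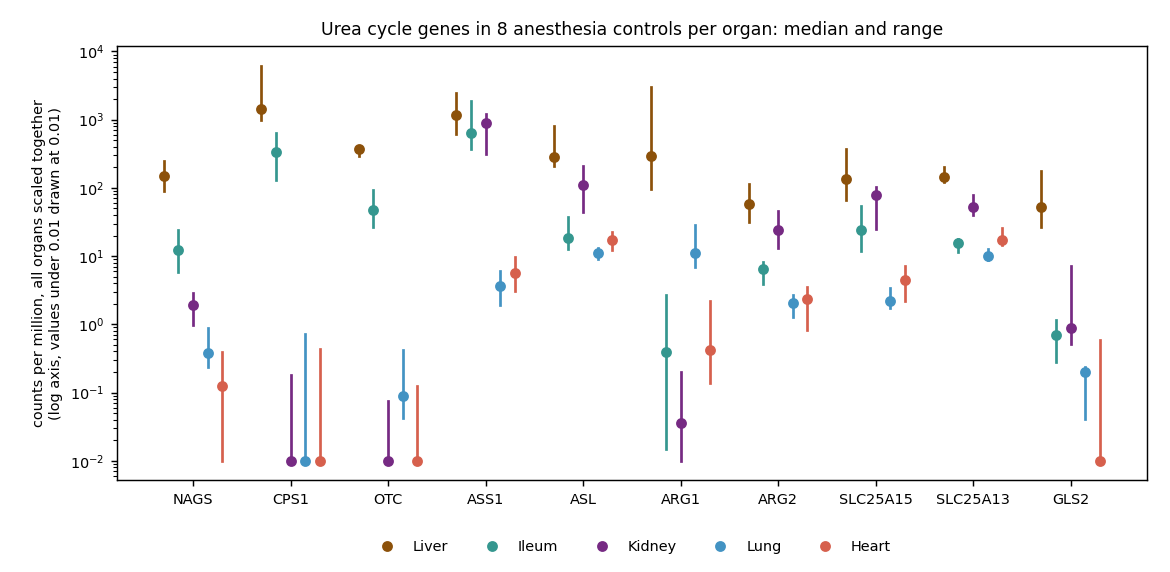
Level of each gene in the 8 control animals of each organ, in CPM scaled over all organs, on a log axis. Points are medians and lines run from the lowest to the highest animal. Liver is highest for every gene, ASS1 is high in liver, kidney and ileum, and CPS1 and OTC are near 0 in kidney, lung and heart.

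In liver, 4 of the 10 genes rose in CPB animals over controls and none fell. ARG1 rose by 2.90 ± 0.62 (log2 fold change ± SE, adjusted p = 0.00289) and SLC25A15 by 1.66 ± 0.32 (adjusted p = 0.00158). ASS1 rose by 0.76 ± 0.26 (adjusted p = 0.0372) and GLS2 by 0.88 ± 0.32 (adjusted p = 0.0468). Of all 15406 genes tested in liver, 26.9% passed and 15.6% passed as higher. The fold changes of all 10 were positive and their median was 0.71, beside -0.03 for all genes tested. The 8 controls serve both this comparison and that of linrodostat with control.

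The feeding steps in liver were higher in CPB animals on average without passing. NAGS ranged from 49.5 to 135 CPM in controls with a median of 81.9, and from 72.5 to 196 with a median of 143 in CPB animals (0.65 ± 0.29, adjusted p = 0.0972). CPS1 ranged from 540 to 3506 CPM in controls with a median of 762.1, and from 1317 to 3397 with a median of 2245 in CPB animals (0.99 ± 0.38, adjusted p = 0.0594). The CPS1 controls split into 6 animals at or below 893 CPM, animal 14 at 1350 and animal 4 at 3506, which was above every CPB animal. Without the liver of control 4 the CPS1 difference was 1.504 and passed (adjusted p = 0.00109). In the 6 alternative fits with edgeR, DESeq2 or limma-voom that keep control 4, CPS1 passed in 2, at adjusted p from 0.0152 to 0.130 over the 6. OTC hardly moved, with 162 to 228 CPM in controls (median 199) and 151 to 260 in CPB animals (median 205), a log2 difference of 0.05 ± 0.13 whose 95% interval ran from -0.22 to 0.33.

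Among the cytosolic enzymes, ASS1 ranged from 339 to 1385 CPM in control livers (median 647) and from 792 to 1800 in CPB livers (median 1174), so the arms overlapped and 2 of 7 CPB animals lay above all controls. Its call is narrow: in the 19 fits that each leave out 1 liver it was lost in 9, without control 1, 10, 13, 15 or 26 or CPB 2, 6, 9 or 11, at adjusted p up to 0.0836. ASL did not pass, with 118 to 459 CPM in controls (median 155) and 107 to 312 in CPB animals (median 167), and its highest value was again that of control 4. ARG1 had the largest fold change of the set in liver. Its values in controls were 54.2 to 278 CPM in 7 animals and 1707 in control 4, and in CPB animals they ran from 1681 to 4947 with a median of 2190. Control 4 thus lay inside the CPB range, 6 of 7 CPB animals lay above all controls, and without control 4 the ARG1 difference was 4.09 on the log2 scale. ARG1 passed in all 19 fits that leave out 1 liver. ARG2, the other arginase, ranged from 17.9 to 62.3 CPM in controls (median 31.3) and from 17.7 to 56.1 in CPB livers (median 43.8), and its difference was 0.15 ± 0.43 (adjusted p = 0.828).

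The 2 carriers differed from each other in their liver values. SLC25A15 was between 37.3 and 209 CPM in controls (median 74.5) and between 210 and 346 in CPB animals (median 303). It was the only member whose arms did not overlap in liver, which was the case for 3.73% of all genes tested, and the gap was small, from 209 CPM in control 4 to 210 in CPB animal 19. SLC25A15 passed in all 19 fits that leave out 1 liver. SLC25A13 overlapped widely, with 67.8 to 109 CPM in controls (median 79.6) and 79.5 to 144 in CPB livers (median 104), and did not pass (0.25 ± 0.16, adjusted p = 0.258).

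GLS2 in liver ranged from 15.0 to 38.8 CPM in 7 controls, was 99.3 in control 4, and ranged from 39.6 to 98.1 in CPB animals (median 68.7). All 7 CPB animals lay above 7 of the controls and below the eighth. The GLS2 call held in 4 of 19 fits that leave out 1 liver, those without control 4, CPB 19, linrodostat 20 or linrodostat 24, and in the other 15 the adjusted p reached 0.0904. On the assembly GLS2 shares 10356 bases with SPRYD4 and 150 with RBMS2, and whether the counting used strand is not given in the sources used here, so reads of the shared stretch cannot be assigned with certainty. SPRYD4 itself rose in CPB livers, from 14.4 ± 4.93 CPM (SD, n = 8) to 33.2 ± 6.89 (n = 7), by 1.21 ± 0.18 (adjusted p = 0.000335). RBMS2 did not pass in liver (0.21 ± 0.22, adjusted p = 0.509). Of the other members, OTC, ASL, ARG2 and SLC25A15 also overlap another RefSeq gene, for which no value is used here.

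**Figure D2:**
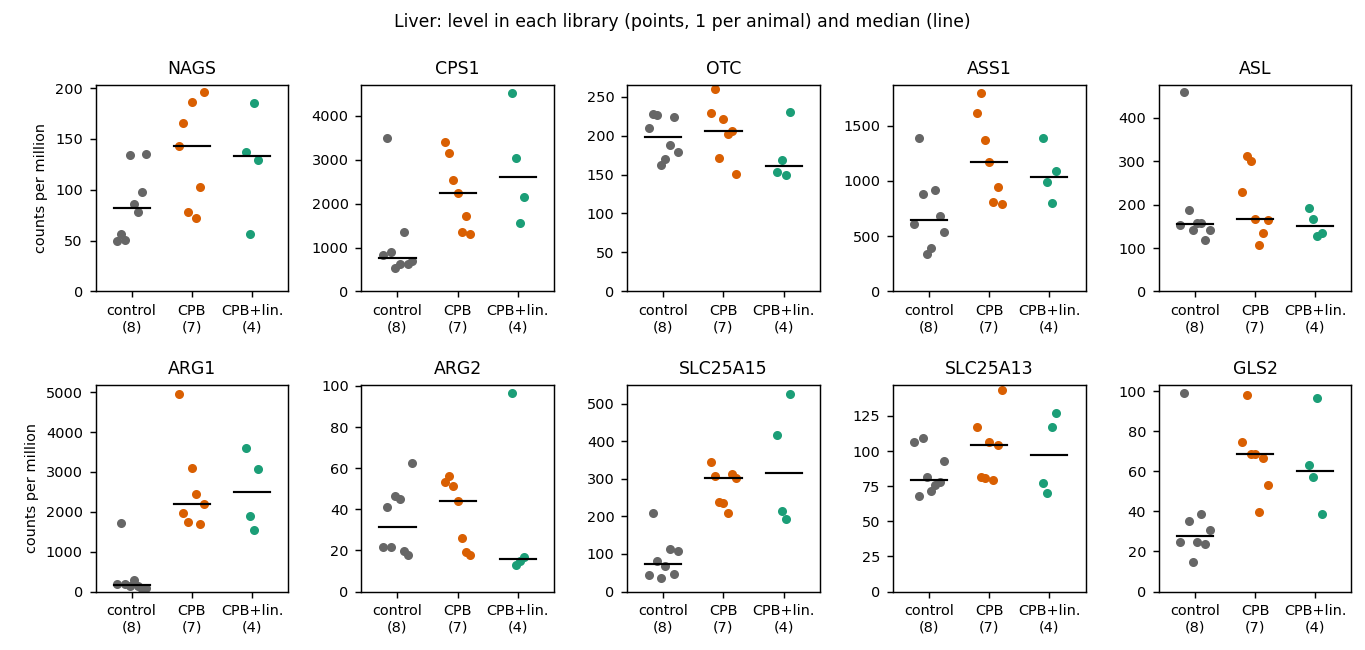
Level of the 10 genes in each liver library in CPM on linear axes from 0, with 1 point per animal and the arm's median as a line, for 8 control, 7 CPB and 4 linrodostat animals. ARG1 and SLC25A15 show the clearest separation of CPB from control, and 1 control animal sits high for CPS1, ASL, ARG1, SLC25A15 and GLS2.

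Control 4 was the highest control liver for CPS1, OTC, ASS1, ASL, ARG1, SLC25A15 and GLS2, but not for NAGS, ARG2 or SLC25A13. Its erythroid marker sum stands apart as given above, and the part of that in these levels was not tested. Without that library 5 of the 10 members passed in liver: the 4 above and CPS1. How many of all genes passed in that fit is not given here, so no background stands beside this count. Summed neutrophil markers in liver had medians of 6.97 CPM in controls, 13.0 in CPB and 16.8 in linrodostat animals, summed monocyte and macrophage markers 1298, 1026 and 947, and summed erythroid markers 108, 232 and 244. Summed T, NK and B cell markers had medians of 44.9, 18.4 and 26.3 CPM in the same order, and summed enterocyte markers 159, 753 and 1463, of which APOA4, an apolipoprotein gene, made up 113, 724 and 1347 as medians of its own level. Their part in the results was not tested. The hepatocyte marker sum had medians of 94839 CPM in controls and 110503 in CPB livers.

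Livers of the same arm differed together in some of these genes. With arm means removed, the log2 CPM of CPS1 and ASS1 had Pearson's r = 0.890 over 19 livers (adjusted permutation p = 0.00045) and Spearman's rho = 0.888 (adjusted permutation p = 0.00045), and r was 0.860 without the 2 livers farthest from the median of CPS1. Within arms, r was 0.868 in the controls and 0.987 in the CPB animals. CPS1 and ASL had r = 0.859 (adjusted permutation p = 0.0027) and rho = 0.825 (0.0011 by the same test), with r = 0.726 without the 2 farthest livers, 0.913 in controls and 0.818 in CPB animals. ASS1 and ASL had r = 0.750 (adjusted permutation p = 0.0067) and rho = 0.705 (0.041 by the same test), with r = 0.664 without the 2 farthest, 0.693 in controls and 0.863 in CPB animals. Of the 45 pairs of members, 9 passed for r and 5 for both r and rho, where the p-values come from 100000 permutations within arms and are adjusted over the 45 pairs. ASS1 with GLS2 (r = 0.732) and ASL with GLS2 (r = 0.739) were the other pairs passing both. Without the 2 farthest livers their r fell to 0.476 and 0.414, with permutation p of 0.058 and 0.065, so over all arms neither passed without those samples. Within arms r was 0.887 in controls and 0.868 in CPB animals for ASS1 with GLS2, and 0.888 and 0.808 for ASL with GLS2. The liver of control 4, the highest control for CPS1, ASS1, ASL and GLS2, is part of every r given here for controls. Those r were not computed without it. NAGS, by contrast, had no r with another member that passed, and its r with CPS1 was -0.301.

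For each gene, 2 or all of the 3 genes with the most similar variation among the 19 livers, arm means removed, are given as a description, since these livers share their libraries and depth. CPS1 was closest to AADAC (r = 0.920), SPRYD4 and SULT2A1, and ASS1 to AADAC (r = 0.886), DMTN and FBP1. The genes closest to ASL included FBXO9 (r = 0.856) and CROT, and OTC was closest to PBXIP1 (r = 0.825), PNPLA7 and UROC1. NAGS stood with TPT1 (r = 0.823), NOP53 and EIF3G. ARG1 was closest to SLC1A2 (r = 0.862), SURF1 and RNF14, and ARG2 to RABL3 (r = 0.813), COX7C and TOR1A. SLC25A15 was closest to PAPSS2 (r = 0.755), ST6GAL2 and HPRT1, and SLC25A13 to CIDEC (r = 0.851), SPG7 and GAPDH. GLS2 was closest to RBMS2 (r = 0.866), SPRYD4 (r = 0.850) and VAMP2, of which the first 2 overlap it on the assembly.

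In kidney, the 2 mitochondrial carriers rose in CPB animals and NAGS and GLS2 fell, while the arginine-making enzymes ASS1 and ASL did not pass. CPS1 and OTC had too few counts to test. Of the 8 members tested, 2 were thus higher and 2 lower, beside 21.1% of 17653 genes passing, 11.3% as higher and 9.86% as lower. No member had arms that did not overlap, which 3.89% of all genes had. The median fold change of the members was 0.29 on the log2 scale, beside -0.03 for all genes.

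SLC25A15 in kidney was between 32.9 and 128 CPM in controls (median 101) and between 84.1 and 232 in CPB animals (median 187), a difference of 0.77 ± 0.25 (adjusted p = 0.0324). The arms overlapped, with 4 of 7 CPB animals above all controls, and control 15 was far below the other controls. The call was lost without control 7 or 14 or CPB 6, 19, 21 or 25, at adjusted p up to 0.0894. SLC25A13 was between 53.1 and 97.2 CPM in controls (median 66.7) and between 70.8 and 106 in CPB animals (median 103), a difference of 0.46 ± 0.13 (adjusted p = 0.0191), which was lost only without CPB 25 among the fits leaving out 1 kidney (adjusted p = 0.0510). Both carriers thus shifted upward with overlapping arms.

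NAGS in kidney was low in all animals, with 1.25 to 3.70 CPM in controls (median 2.40) and 0.623 to 1.61 in CPB animals (median 1.35), a difference of -0.97 ± 0.30 (adjusted p = 0.0275). The call was lost without control 1 or 10 or CPB 9 or 21, at adjusted p up to 0.0556. GLS2 ranged over 0.649 to 9.45 CPM in controls (median 1.12) and 0.220 to 1.17 in CPB animals (median 0.683), and its difference of -1.77 ± 0.52 passed (adjusted p = 0.0221). That GLS2 difference rested on few controls: animal 14 had 9.45 CPM, animal 15 had 3.88, animal 4 had 2.70, and the other 5 had 0.649 to 1.15, inside the CPB range. Controls 14 and 15 are the 2 control kidneys lowest in proximal tubule markers, although 4 kidneys of the other arms lay below control 14, and their SLC12A1 levels, a sodium carrier of the thick ascending limb, were 2042 and 1950 CPM against at most 844 in any other kidney. Without those 2 libraries GLS2 was at -0.74 (adjusted p = 0.173), SLC25A15 at 0.56 (0.0662 adjusted) and SLC25A13 at 0.37 (0.0675 adjusted), and NAGS alone of the 4 still passed, at -1.16 (adjusted p = 0.0149). That fit has fewer animals, and its count of all genes passing is not given here.

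ASS1 in kidney was between 414 and 1492 CPM in controls (median 1152) and between 982 and 2083 in CPB animals (median 1193), and ASL between 57.7 and 267 (median 139) and between 99.9 and 195 (median 128). Neither passed, at 0.25 ± 0.23 for ASS1 (adjusted p = 0.455) and -0.14 ± 0.23 for ASL (adjusted p = 0.702). Control 15 was lowest for both. ARG2 was at 16.6 to 57.4 CPM in controls (median 30.8) and 27.7 to 68.6 in CPB animals (median 39.5) and did not pass (adjusted p = 0.351). ARG1, nearly silent in kidney, was at 0 to 0.255 CPM in controls and 0 to 1.48 in CPB animals, and its difference of 2.71 ± 1.16 did not pass (adjusted p = 0.102).

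Across the 19 kidneys, the log2 levels of ASL, ASS1 and NAGS followed the summed proximal tubule markers. ASL had r = 0.815 (permutation p adjusted over 8 genes = 0.00016) and rho = 0.772 (0.0013), with r = 0.690 without the 2 kidneys farthest from the median marker level, 0.838 in controls and 0.764 in CPB animals. ASS1 had r = 0.771 (adjusted permutation p = 0.0015) and rho = 0.618 (0.017), but r = 0.452 without the 2 farthest kidneys (permutation p = 0.067), so over all arms the relation did not pass without those 2 samples. Within arms r for ASS1 was 0.909 in controls and 0.849 in CPB animals. NAGS is given with the same 3 measures: r = 0.578 (adjusted permutation p = 0.023), rho = 0.698 (0.0049) and r = 0.701 without the 2 farthest (permutation p = 0.0019). Within arms r for NAGS was 0.621 in controls and 0.557 in CPB animals. SLC25A15 had r = 0.393 over all arms (adjusted permutation p = 0.19), but 0.894 in controls and 0.645 in CPB animals. ARG1, ARG2, SLC25A13 and GLS2 had no r or rho that passed. For the values over 19 kidneys arm means were not removed and libraries were permuted across arms. Those values thus include any difference between arms. The marker sum itself had medians of 4932 CPM in controls, 3433 in CPB and 3564 in linrodostat kidneys, and its part in the results was not tested.

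**Figure D3:**
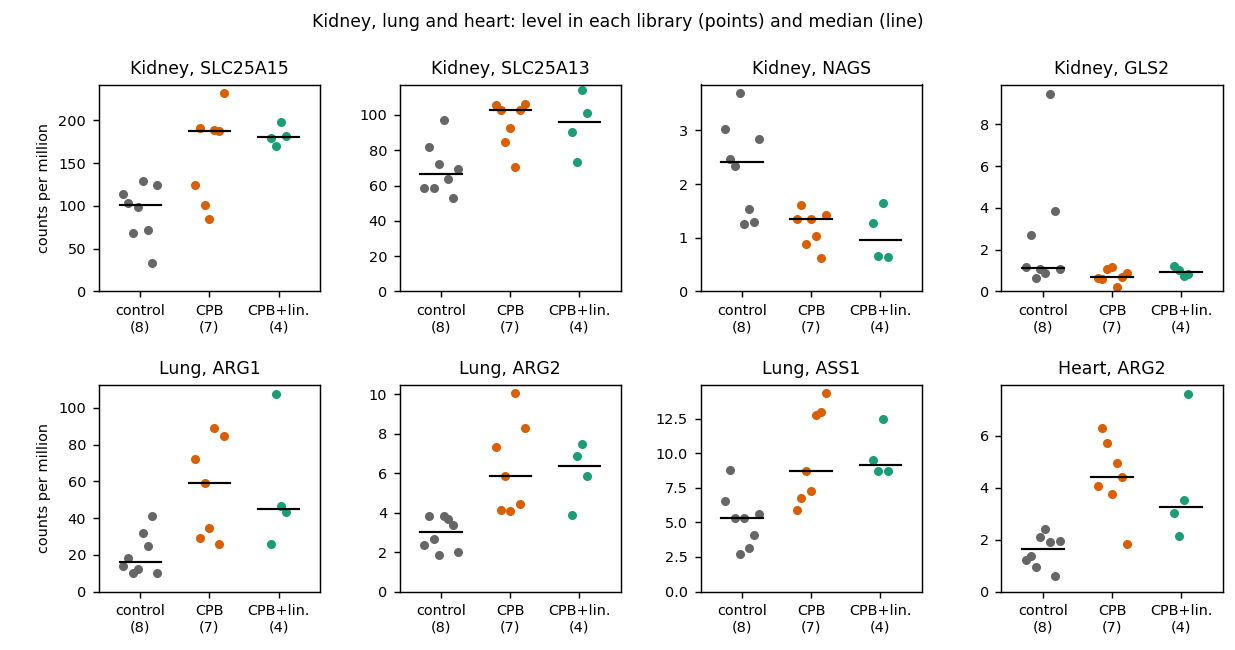
Level in each library in CPM, linear axes from 0, points for animals and lines for medians of 8 control, 7 CPB and 4 linrodostat animals, for the members that passed in kidney, lung or heart in CPB against control. SLC25A15 and SLC25A13 are higher and NAGS is lower in CPB kidneys, GLS2 in kidney is high in a few controls, and ARG2 is higher after CPB in lung and heart.

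In ileum none of the 10 genes passed in CPB animals against controls with edgeR's quasi-likelihood test, and no gene of the 17869 tested did (0%). At an unadjusted p under 0.05, 0 of the 10 members and 932 of all genes passed. DESeq2 called 0 members and 16 genes, and limma-voom 0 members and 0 genes. The median fold change of the members was -0.21, beside -0.02 for all genes. Spread between libraries was widest in this organ, with a biological coefficient of variation of 0.526 against 0.339 to 0.365 in the others. Cell type markers also varied widely between ilea. Summed smooth muscle markers ran from 159 to 21554 CPM, and summed T, NK and B cell markers from 135 to 1233. Their part in the results was not tested.

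CPS1 and OTC, the enterocyte steps that make citrulline, and ASS1, which uses it, were lower on average in CPB ilea with wide overlap. CPS1 was between 179 and 856 CPM in controls (median 460), and in CPB animals it was 0.528 in animal 19 and between 164 and 527 in the other 6, a difference of -0.94 ± 0.69 with a 95% interval from -2.38 to 0.49. OTC was between 36.7 and 123 CPM in controls (median 65.4) and 0.807 in CPB animal 19 and between 33.0 and 118 in the other 6. ASS1 ranged from 513 to 2422 CPM in controls (median 905) and from 83.3 to 1413 in CPB animals (median 567), a difference of -1.05 ± 0.58 with an interval from -2.28 to 0.17. Linrodostat animal 24 was lowest of its arm for all 3, with 121 CPM of CPS1, 28.9 of OTC and 74.4 of ASS1.

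The difference for OTC was -0.39 ± 0.56, and those of the remaining members in ileum ran from -0.43 for SLC25A15 to 0.68 for ARG1. NAGS was at 8.11 to 32.4 CPM in controls (median 16.97) and 8.57 to 41.4 in CPB animals (median 14.7). ASL was at 17.8 to 49.9 (median 25.8) and 13.0 to 51.8 (median 20.4), and SLC25A15 at 16.2 to 72.7 (median 33.3) and 13.1 to 62.5 (median 20.4). All arms of these genes overlapped. SLC25A13 kept to the narrow range of 15.0 to 29.4 CPM over both arms, and ARG2 to 5.38 to 14.6.

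The levels of 5 members, CPS1, OTC, ASS1, ASL and SLC25A15, followed the enterocyte markers across ilea. These markers summed to 4994 to 12262 CPM in controls (median 5835), 451 to 9585 in CPB animals (median 3993) and 2723 to 11744 in linrodostat animals (median 5995). Over 19 ilea, the log2 level of CPS1 had r = 0.942 with the log2 marker sum (adjusted permutation p = 3.3e-05) and rho = 0.904 (adjusted permutation p = 0.0001). OTC had r = 0.943 (adjusted permutation p = 3.3e-05) and rho = 0.851, ASS1 r = 0.808 (adjusted permutation p = 5e-05) and rho = 0.816, and SLC25A15 r = 0.762 (adjusted permutation p = 3.3e-05) and rho = 0.851. ASL had r = 0.578 (adjusted permutation p = 0.011) and rho = 0.816. Without the 2 ilea farthest from the median marker level, r was 0.869 for CPS1, 0.875 for OTC, 0.778 for ASS1, 0.878 for SLC25A15 and 0.941 for ASL, so none of these 5 relations rested on them. Within the controls r was 0.764 for CPS1, 0.682 for OTC, 0.898 for ASS1, 0.803 for SLC25A15 and 0.839 for ASL. Within the CPB animals r was 0.968, 0.985, 0.863, 0.804 and 0.293 in the same order. The p-values come from 100000 permutations, of which 1e-05 is the smallest possible, and are adjusted over 10 genes. Arm means were not removed and libraries were permuted across arms, so the values over 19 ilea include any difference between arms. ARG1, ARG2, SLC25A13 and GLS2 had no r or rho that passed, and NAGS passed for rho (0.704, adjusted permutation p = 0.0021) but not for r (0.457, adjusted permutation p = 0.089). Without the 2 farthest ilea r for NAGS was 0.875 (permutation p = 1e-05), and within arms it was 0.705 in controls and 0.265 in CPB animals. The part of the enterocyte markers in the arm differences was not tested.

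**Figure D4:**
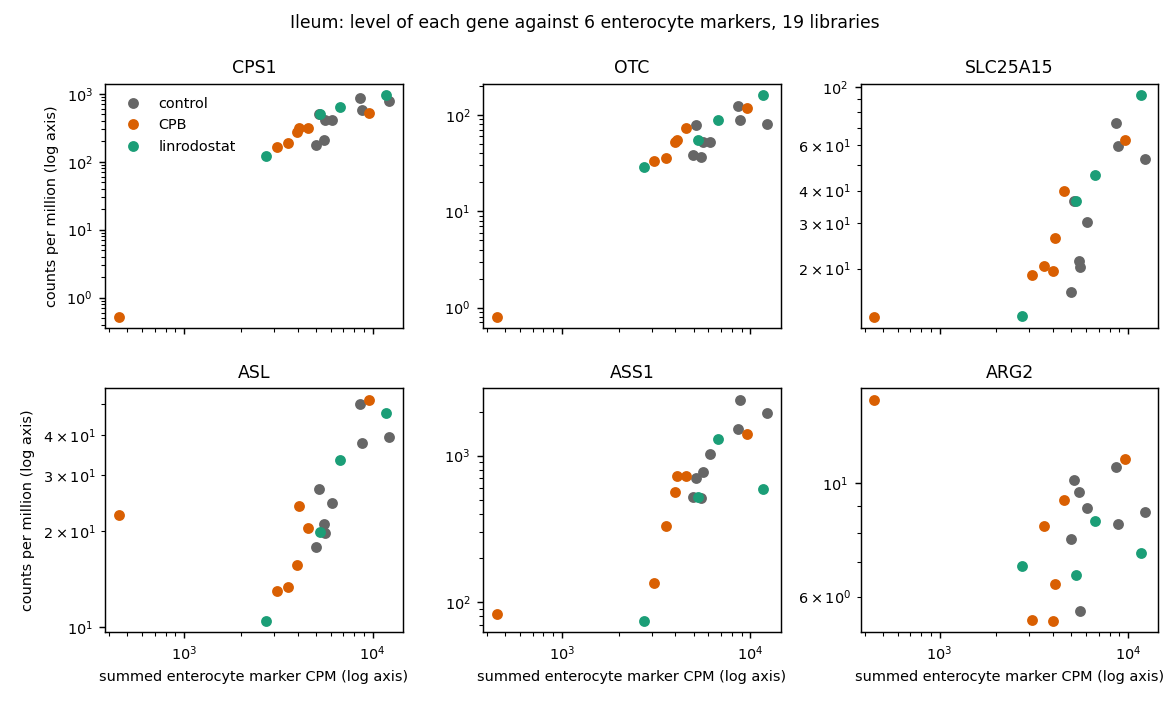
Level of 6 members in each of 19 ileum libraries against the summed level of 6 enterocyte markers, both in CPM on log axes, coloured by arm. CPS1, OTC, SLC25A15 and ASS1 run along with the markers, CPB animal 19 is at the far left with a marker sum of 451, and ARG2 does not follow them.

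In lung, both arginases and ASS1 rose in CPB animals and no member fell. Of 8 members tested 3 passed, beside 4.71% of 17849 genes passing and 2.08% passing as higher, and the members' median fold change was 0.41 beside 0.01 for all genes. ARG2 was between 1.86 and 3.85 CPM in controls (median 2.999) and between 4.07 and 10.1 in CPB animals (median 5.88), so all 7 CPB animals lay above all controls, a separation seen for 0.706% of all genes. The ARG2 difference was 1.10 ± 0.24 (adjusted p = 0.0130). ARG1 was between 10.1 and 41.1 CPM in controls (median 16.1) and between 26.1 and 89.1 in CPB animals (median 59.0), with 4 of 7 above all controls and a difference of 1.48 ± 0.37 (adjusted p = 0.0321). Control lungs split by sex for both arginases. ARG2 was at 3.35 to 3.85 CPM in females and 1.86 to 2.65 in males, and ARG1 at 18.2 to 41.1 and 10.1 to 14.0. In CPB lungs the sexes overlapped for both genes. ASS1 was between 2.74 and 8.75 CPM in controls (median 5.30) and between 5.89 and 14.4 in CPB animals (median 8.73), with 3 of 7 above all controls and a difference of 0.92 ± 0.24 (adjusted p = 0.0346). The other 5 tested members, NAGS, ASL, SLC25A15, SLC25A13 and GLS2, did not pass.

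CPB animals 19 and 25, whose lungs held the thick limb and distal tubule markers, were also the 2 highest CPB lungs for ARG1 (89.1 and 84.7 CPM) and ARG2 (10.1 and 8.32 CPM). For ASS1 animal 25 was the highest CPB lung at 14.4 CPM, and animal 19 at 12.7 lay just below animal 21 at 12.9. Control kidneys, scaled within kidney, had medians of 1152 CPM for ASS1, 30.8 for ARG2 and 0.0443 for ARG1. The part of kidney RNA in these lung levels was not tested. Without the lungs of CPB 19 and 25, 0 members passed: ARG2 was at 0.81 (adjusted p = 0.0950), ARG1 at 1.12 (adjusted p = 0.168) and ASS1 at 0.68 (adjusted p = 0.188). At 162 in place of 840, fewer genes of any kind passed in that fit, which has fewer animals. With single lungs left out, ARG2 passed in all 19 fits. ARG1 was lost without control 1, 7, 10 or 26 or CPB 2, 19 or 25, at adjusted p up to 0.0773, and ASS1 without control 7, 10, 14, 15 or 26 or CPB 19, 21 or 25, at adjusted p up to 0.0902. Summed neutrophil markers had medians of 150 CPM in controls, 275 in CPB and 269 in linrodostat lungs, and summed monocyte and macrophage markers 3291, 2243 and 2177. Summed erythroid markers had medians of 231, 543 and 695 CPM, and the part of these cell types in the result was not tested.

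In heart the arginase ARG2 was the only member that passed. It was between 0.580 and 2.42 CPM in controls (median 1.64) and between 1.82 and 6.30 in CPB animals (median 4.4002), with 6 of 7 CPB animals above all controls and animal 25 inside the control range. The difference was 1.501 ± 0.320 (adjusted p = 0.00429), and it passed in all 19 fits that leave out 1 heart. Of 6 members tested 1 passed, beside 11.9% of 14890 genes, 6.39% as higher and 5.53% as lower. No member had separate arms, which 2.36% of all genes had. SLC25A15 was between 1.499 and 4.95 CPM in controls (median 3.04) and between 1.90 and 7.76 in CPB hearts (median 5.39) and did not pass (0.72 ± 0.30, adjusted p = 0.124), except in the fit without CPB 9 (0.86, adjusted p = 0.0455). ASS1, ASL, ARG1 and SLC25A13 did not pass, and NAGS, CPS1, OTC and GLS2 had too few counts to test in heart. Summed smooth muscle markers had medians of 4350 CPM in control and 6822 in CPB hearts, and their part in the result was not tested.

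**Figure D5:**
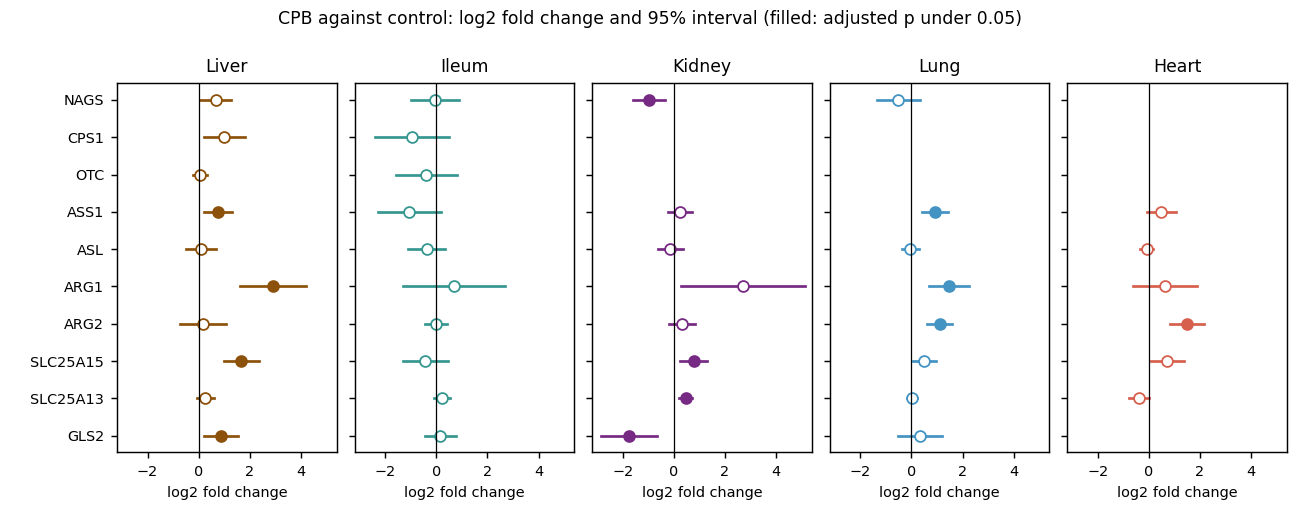
Log2 fold change of CPB against control with its 95% interval for each member in each organ, from the fit within the organ, with filled points where the adjusted p was under 0.05 and no point where the gene had too few counts to test. All 10 liver values lie above 0, the kidney values go in both directions, and no ileum value is filled.

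Whether the CPB difference itself varied between the 5 organs was tested in 1 model over all 95 libraries. The interaction of organ and arm passed for 6 of 10 members, beside 12.9% of 20321 genes: GLS2 (adjusted p = 0.00311), SLC25A15 (0.0144), ASS1 (0.0226), ARG2 (0.0315), SLC25A13 (0.0326) and NAGS (0.0359). It did not pass for CPS1 (adjusted p = 0.255), ARG1 (0.287), OTC (0.827) or ASL (0.894). In this model the liver difference exceeded the ileum difference by 2.07 ± 0.46 for SLC25A15 (adjusted p = 0.00213) and 1.79 ± 0.51 for ASS1 (adjusted p = 0.0175), where 7.41% of all genes passed. It exceeded the kidney difference by 2.63 ± 0.54 for GLS2 (adjusted p = 0.00130) and 1.62 ± 0.50 for NAGS (adjusted p = 0.0483), where 3.52% passed. This model keeps control kidneys 14 and 15, on which the kidney GLS2 difference rested. It also keeps the ileum of CPB animal 19, low in enterocyte markers and the lowest of its arm for SLC25A15 (13.1 CPM) and ASS1 (83.3 CPM). The model was not refitted without any of these libraries. The CPB difference of ARG2 was smaller in liver than in heart by 1.38 ± 0.45 (adjusted p = 0.0489, 6.22% of all genes passing). None of the 10 passed for liver against lung, where 3.91% of all genes passed. There 3 members, NAGS, ARG2 and SLC25A15, had an unadjusted p under 0.05, and the share of all genes at that level is not given here. Genes with too few counts to test within an organ still enter this model there. Mean levels in control and CPB hearts, scaled within heart, were 0.0926 and 0.00702 CPM for NAGS and 0.0922 and 0.0292 for GLS2. Without heart, whose libraries carry batch label 2 in every arm, 3 members still passed, and NAGS, ARG2 and SLC25A13 did not (adjusted p of 0.115, 0.206 and 0.384). GLS2, SLC25A15 and ASS1 passed in each of the 5 alternative fits run. SLC25A13 was lost in 4 of them, NAGS in 3 (adjusted p up to 0.479) and ARG2 in 2, while CPS1 (0.00656) and ARG1 (0.0499) passed with limma-voom alone.

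Linrodostat animals were not shown to differ from CPB animals in any member in any organ. In edgeR's quasi-likelihood test 0 members passed in each of the 5 organs, at an unadjusted p under 0.05 there were also 0, and DESeq2 and limma-voom called 0 as well. At that unadjusted level edgeR had 1297 of 15406 genes in liver and 1641 of 17869 in ileum. In kidney, lung and heart they numbered 822 of 17653, 462 of 17849 and 901 of 14890. Over all genes, edgeR called 0.772% in liver (119 genes) and 0% in ileum, kidney, lung and heart, where DESeq2 called 86, 4, 3 and 16 genes and limma-voom 0 in each. Separate arms were seen for no member, and for 1.86% of all genes in liver, 1.19% in ileum, 0.408% in kidney, 0.392% in lung and 0.396% in heart. The intervals are wide with 4 drug animals. In liver the 95% interval of linrodostat minus CPB on the log2 scale ran from -1.53 to 1.46 for ARG1, from -0.52 to 1.08 for SLC25A15 and from -0.63 to 1.28 for CPS1. In ileum it ran from -0.55 to 2.79 for CPS1 and from -0.74 to 2.05 for OTC. For SLC25A15 in kidney it ran from -0.42 to 0.82, and for ARG2 in lung from -0.66 to 0.52.

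Set against the same controls, linrodostat livers had higher ARG1, SLC25A15 and CPS1. Of the 10 members 3 passed, all as higher, beside 21.8% of all genes, 12.9% as higher and 8.88% as lower. None had separate arms, which 12.8% of all genes had. ARG1 was at 1532, 1901, 3079 and 3599 CPM in the 4 linrodostat livers, a difference from controls of 2.87 ± 0.67 (adjusted p = 0.00708). SLC25A15 was at 194, 216, 418 and 527 CPM (1.94 ± 0.36, adjusted p = 0.00187), with 3 of 4 above all controls. CPS1 was at 1565, 2157, 3043 and 4515 CPM (1.32 ± 0.43, adjusted p = 0.0361). Without control 4 the differences were 4.05, 2.25 and 1.83 and ASS1 and GLS2 passed as well, at 0.77 (adjusted p = 0.0492) and 1.21 (adjusted p = 0.00373). The share of all genes passing without control 4 is not given here. The CPS1 call was lost in 9 of 19 fits that leave out 1 liver, those without control 1, 7, 10, 13, 15 or 26 or linrodostat 12, 18 or 24, at adjusted p up to 0.151. ARG2 in linrodostat livers was at 13.0, 14.8 and 16.7 CPM in 3 animals, below every control, and at 96.5 in animal 12, above every control.

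In linrodostat kidneys 3 members were higher than in controls and 1 was lower, beside 20% of all genes passing, 11.7% as higher and 8.27% as lower. SLC25A15 was at 170, 179, 181 and 198 CPM, above all controls, which 9.85% of all genes showed as complete separation in either direction, and its difference was 0.97 ± 0.28 (adjusted p = 0.0209). SLC25A13 differed by 0.45 ± 0.15 (adjusted p = 0.0426) and NAGS by -1.13 ± 0.37 (adjusted p = 0.0365). ARG1 was at 0, 0.0520, 0.655 and 9.96 CPM, and its difference of 5.07 ± 1.27 (adjusted p = 0.00908) rested on animal 12: without it the value was 1.51 (adjusted p = 0.460). That kidney also held 6.69 CPM of CPS1 and 1.21 of OTC, which were at 0 in the other 3 linrodostat kidneys, and a summed hepatocyte marker level of 1277 CPM against 158 to 482 in all other kidneys. Without animal 12 none of the 8 tested members passed, SLC25A15 standing at 0.97 (adjusted p = 0.0509), SLC25A13 at 0.45 (0.0805 adjusted) and NAGS at -1.25 (0.0579 adjusted). The share of all genes passing without animal 12 is not given here. SLC25A13 was lost in 12 of 19 fits that leave out 1 kidney, NAGS in 7 and SLC25A15 in 3, those without linrodostat 12, 18 or 20.

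In linrodostat lungs ARG2 was at 3.86, 5.87, 6.87 and 7.49 CPM, all above the controls, a separation that 3.56% of all genes showed, and the lowest of them exceeded the highest control, at 3.85, by little. It was the 1 member of 8 that passed (1.03 ± 0.27, adjusted p = 0.0473), beside 2.35% of all genes, and the call was lost in 11 of 19 fits that leave out 1 lung. The highest adjusted p, 0.165, came without linrodostat 20, the lung of this arm highest in thick limb and distal tubule markers. ARG1 at 1.46 ± 0.42 (adjusted p = 0.0709) and ASS1 at 0.93 ± 0.28 (adjusted p = 0.0769) did not pass. In heart 0 of 6 members passed in edgeR's quasi-likelihood test, beside 2.04% of all genes, 1.08% as higher and 0.96% as lower, and none had separate arms, which 3.35% of all genes had, with ARG2 at 1.37 ± 0.36 and an adjusted p of 0.0509. ARG2 was the 1 member with an unadjusted p under 0.05 in heart, beside 2353 of all 14890 genes. DESeq2 called ARG2 while limma-voom called no member. In ileum 0 of 10 members passed, beside 0.213% of all genes, 0.151% as higher and 0.0616% as lower, and none had separate arms, which 2.36% of all genes had. In that comparison SLC25A13 was the 1 member at an unadjusted p under 0.05 (0.39 ± 0.17, adjusted p = 0.304), beside 2463 of all 17869 genes. DESeq2 and limma-voom called no member.

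Other genes of nitrogen handling in CPB livers are given by lists chosen from what the genes are known to do. Their counts stand beside the 15.6% of all liver genes that passed as higher and the 11.3% that passed as lower. Of 21 tested genes of arginine, ornithine, polyamine and nitric oxide metabolism 4 rose and 3 fell. The polyamine genes SRM (0.87 ± 0.21), AZIN1 (0.79 ± 0.12), ODC1 and SMS rose, and PYCR1 (-1.14 ± 0.30), which makes proline, DDAH2 and the amino acid carrier subunit SLC7A7 fell. Of 18 tested genes of ammonia, glutamine and aspartate handling 4 rose and 1 fell. GOT1 (0.93 ± 0.31), the cytosolic aspartate aminotransferase, the mitochondrial glutamate carrier SLC25A22 (0.92 ± 0.19), SLC38A2 and SLC25A12 rose. CA5A, the mitochondrial carbonic anhydrase that supplies bicarbonate to CPS1, fell from 57.8 ± 16.7 CPM (SD, n = 8) to 24.3 ± 9.67 (n = 7), by 1.25 ± 0.25 on the log2 scale (adjusted p = 0.00159). The medians of the 2 lists were 0.30 and 0.16, beside -0.03 for all genes.

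Of 12 hormone receptor and transcription factor genes known to act on urea cycle genes, 4 rose in CPB livers and 2 fell. CEBPA rose by 1.29 ± 0.32, PPARGC1A by 1.18 ± 0.43 and HNF4A by 1.08 ± 0.24 with CEBPB, while CREB1 and the glucagon receptor GCGR (-0.72 ± 0.15) fell. Of 9 hepatic genes induced by glucagon or glucocorticoid 4 rose and none fell: SDS, serine dehydratase, which went from 3.62 ± 3.68 to 236 ± 575 CPM with a spread larger than its mean, G6PC1 (1.81 ± 0.50), FKBP5 (1.73 ± 0.43) and PER1. PCK1 and TAT of the same list did not pass, at 0.27 ± 0.63 and 0.28 ± 0.60. Of 8 periportal hepatocyte genes outside the urea cycle 3 rose, among them SDS and SDSL (0.74 ± 0.21). Of 10 pericentral hepatocyte genes 0 passed in either direction. The medians of these 4 lists were 0.27, 0.90, 0.83 and 0.01. Whether the periportal list differs from the pericentral one was not tested.

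In CPB kidneys 5 of 22 genes of arginine, ornithine, polyamine and nitric oxide metabolism rose and 2 fell, where 11.3% of all kidney genes passed as higher and 9.86% as lower. The arginine carrier SLC7A1 rose by 0.94 ± 0.18, SAT1 by 0.74 ± 0.15, and SRM, SLC3A1 and AZIN1 also rose, while neuronal nitric oxide synthase NOS1 (-1.12 ± 0.32) and DDAH2 fell. Of 19 genes of ammonia, glutamine and aspartate handling 3 rose and 2 fell. Those that rose included SLC38A1 (0.85 ± 0.21) and SLC38A2 (0.51 ± 0.12), and GOT1 and RHCG fell. RHCG, an ammonia channel of the collecting duct, went from 86.8 ± 44.9 CPM (SD, n = 8) to 25.8 ± 9.94 (n = 7), a difference of -1.75 ± 0.35 (adjusted p = 0.00202). Control kidneys 14 and 15, which stood apart in tubule markers as given above, are part of all control values in this paragraph. Their part in the falls of RHCG and NOS1 was not tested, and values of the list genes without them are not given here. Of the 12 receptor and transcription factor genes CEBPD (0.85 ± 0.30) and HNF4A (0.69 ± 0.23) rose and GCGR (-0.92 ± 0.30) fell. The 8 tested hormone-induced genes and 10 pericentral genes had 0 calls in kidney, and of 6 periportal genes CDH1 rose.

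In CPB ilea 0 genes of these 6 lists passed. The counts in lung and heart stand beside 4.71% of all genes passing in lung and 11.9% in heart. In CPB lungs the ornithine aminotransferase OAT (0.59 ± 0.13) and endothelial nitric oxide synthase NOS3 (0.72 ± 0.20) were the 2 of 21 genes of arginine metabolism that passed, both higher. SLC38A3 was the 1 of 17 ammonia and glutamine genes to pass, rising from 0.216 ± 0.0712 to 0.985 ± 1.01 CPM. CREB1 fell as 1 of 12 receptor and transcription factor genes. PCK1, which is in both the hormone-induced and the periportal list, was at 0.0150 ± 0.0425 CPM in control lungs and 2.84 ± 4.57 in CPB lungs, and CDH1 of the periportal list also rose. For PCK1 and SLC38A3 the SD in CPB lungs exceeded the mean. The lungs of CPB 19 and 25, which held kidney markers, are part of these values. Their proximal tubule markers summed to 30.2 and 25.6 CPM, against at most 4.05 in control lungs. The part of kidney RNA in these list genes was not tested, and their values without those lungs are not given here. In CPB hearts OAT (0.48 ± 0.15) and SLC7A1 (0.98 ± 0.25) rose as 2 of 18 arginine genes. SLC38A1 (1.75 ± 0.45) and SLC38A2 (0.93 ± 0.18) rose and SLC38A3 (-1.22 ± 0.22) and the desuccinylase SIRT5 (-0.85 ± 0.14) fell among 15 ammonia and glutamine genes. The glucocorticoid receptor NR3C1 fell by 0.51 ± 0.11 as 1 of 10 receptor and transcription factor genes, and CDH1 as 1 of 4 periportal genes. Among pericentral genes, OAT was the 1 of 9 in lung and 1 of 7 in heart that passed, and 0 of 4 hormone-induced genes passed in heart.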

How the data were processed

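RNA sequencing libraries from 5 organs of 19 pigs were analysed from 1 table of estimated counts per gene that the authors deposited. Per the submitters' processing notes, Salmon, STAR, cutadapt, Trim Galore, bcl2fastq and MultiQC were used with the Sscrofa11.1 assembly, and versions and counting strand are not given in the sources used here. Between 92.7 and 96.6% of values were whole, and all were rounded. Totals per library ran from 20.0 to 53.6 M counts (median 35.1). Within each organ, genes passing edgeR's filter were fitted with edgeR 4.0.16 in R 4.3.3 over the 3 arms (TMM scaling, quasi-likelihood F-test, Benjamini-Hochberg adjustment over all genes tested, threshold 0.05). Organs were compared in 1 fit over all 95 libraries, whose animals are the same in every organ by the labels, and deviations from group means of the same animal had median correlations of 0.0887 to 0.196 over the 10 organ pairs. Log values used a prior count of 2. Alternatives were DESeq2 1.42.0, limma-voom 3.58.1, other scaling, no filter, sex as a covariate, the animal as a block and leaving out libraries, and those without marker-defined kidney or lung libraries were added after seeing the data. The members, the marker lists and the 6 lists of related genes were chosen with earlier results of these data known. The rule for naming genes took all members, up to 3 passing genes per list with the largest absolute fold change and at least 2 CPM in the higher arm, and the 3 genes most correlated with each member among those with a mean of at least 2 CPM. A few genes that this rule takes are not reported here. Other list genes named, passing or not, were chosen after their values were seen. Positions come from a RefSeq table of Sscrofa11.1. No 2 libraries held the same counts.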

Additional observations from a re-analysis of the deposited data

Results flagged for a closer look

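Of 126 groups of 4 to 8 libraries tested for 1 value far from the rest, 12 had one, where chance gives about 1 in 20. In liver, control 4 stood above the other controls for ARG1 at 1707 CPM and for ASL at 459 CPM, and linrodostat animal 12 stood above its arm for ARG2 at 96.5 CPM. In ileum, CPB animal 19 stood below its arm for CPS1 at 0.528 CPM and for OTC at 0.807 CPM, and control 7 below the controls for SLC25A13 at 15.0 CPM. In kidney, control 15 was far below the other controls for ASS1 at 414 CPM and SLC25A15 at 32.9 CPM, and CPB animal 19 below its arm for GLS2 at 0.220 CPM. In heart, CPB animal 25 was below its arm for ARG2 at 1.82 CPM. In lung, control 13 was low for GLS2 at 0.0597 CPM and linrodostat animal 18 high for NAGS at 0.750 CPM.

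The CPB difference varied between organs in the interaction test for 6 genes, with adjusted p of 0.0359 for NAGS, 0.0226 for ASS1, 0.0315 for ARG2, 0.0144 for SLC25A15, 0.0326 for SLC25A13 and 0.00311 for GLS2.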

How the results depend on the processing

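Values here are counts of members passing, or log2 differences for single genes, and the cause of each change was not tested unless fewer libraries or genes entered the fit. For most of these settings the number of all genes passing is not given here. The interaction test called 6 members, 3 without heart, 5 with limma-voom, 5 with relative log expression size factors and 4 with no low-count filter. With the animal as a replicate block, the pairing the labels give, it called 6, organ levels again gave 87 of 100, and the block changed no member's interaction call. In CPB against control, liver had 4 calls, 2 with no low-count filter and 2 with only the 2 arms fitted; kidney had 4, and 1 without the 2 control libraries lowest in proximal tubule markers; lung had 3, and 0 without the 2 libraries highest in thick limb markers. In linrodostat against control, kidney had 4 calls, 2 with limma-voom and 1 with only the 2 arms. Heart had 0, and 1 with DESeq2 or relative log expression size factors. Lung had 1, 3 with DESeq2, 0 with no filter and 2 with sex as a covariate.

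Leaving out 1 library at a time, CPB against control gave 2 to 5 calls in liver, 2 to 4 in kidney, 1 to 3 in lung and 1 to 2 in heart. Linrodostat against control gave 2 to 5 in liver, 0 to 4 in kidney, 0 to 2 in lung and 0 to 1 in heart. Signs changed only for members that did not pass. In CPB against control the ranges were -0.40 to 1.42 for ARG1, -0.20 to 0.0678 for ARG2 and -0.43 to 0.14 for NAGS in ileum, -0.28 to 0.0186 for ASL in kidney, -0.0471 to 0.42 for ASL and -0.0135 to 0.11 for OTC in liver, and -0.13 to 0.0150 for ASL and -0.0225 to 0.0591 for SLC25A13 in lung. In linrodostat against CPB they were -0.61 to 0.0870 for ARG2 in heart. Kidney gave -1.19 to 2.90 for ARG1, -0.46 to 0.0194 for NAGS and -0.11 to 0.10 for SLC25A13. Liver gave -0.25 to 0.21 for ARG1, -0.33 to 0.11 for GLS2 and -0.0166 to 0.48 for SLC25A15. Lung gave -0.55 to 0.22 for ARG1, -0.19 to 0.0894 for ARG2 and -0.12 to 0.13 for ASS1.

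Other settings turned the sign of members near 0. ARG2 in ileum was 0.00506 with no filter in CPB against control. SLC25A13 in kidney, linrodostat against CPB, was 0.000962 with DESeq2, 0.00478 with no filter, 0.000828 with relative log expression size factors and 0.000366 without the 2 control libraries. Without the 2 lung libraries, SLC25A13 was -0.0378 in CPB against control, and ARG1 0.34 and ARG2 0.22 in linrodostat against CPB. ASS1 there was -0.00180 with sex as a covariate. With 4 linrodostat animals and few counts for CPS1, OTC, NAGS and GLS2 outside liver and ileum, small differences were not detectable.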
